A study of Mus musculus with 13 samples.

Results

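Pitx1, Tbx4 and Isl1 are genes of hindlimb identity, and their loci were examined here in forelimb and forebrain cells of mouse embryos by ATAC-seq, which marks open chromatin through the insertions of the Tn5 transposase. Members are the called regions of 13 peak lists whose strongest summit lies within 50 kb of the body of Tbx4 or Isl1, with that gene as the nearest protein-coding gene, or within 400 kb of the body of Pitx1. There are 782 such regions among the 1357031 distinct regions of the series, 623 at Pitx1, 81 at Tbx4 and 78 at Isl1. A further 66 regions within 50 kb of Tbx4 are nearer to Gm11444 or Tbx2 and are not members. Overlapping regions of the 12 grouped libraries were joined, which gave 126 consensus regions, 97 at Pitx1, 16 at Tbx4 and 13 at Isl1.

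All embryos were of the B6CBAF1 strain at E12.5, and the tissues were the distal forelimb (DFL, the future digits), the proximal forelimb (PFL) and the forebrain (FB). Each of the 3 tissues was taken from wild type (wt) and from the line 542, whose embryos are homozygous for the allele II1TDOM 542, a single extra copy of the distal limb enhancer II1 placed with a LacZ reporter into the proximal limb domain (T-DOM) next to the HoxD cluster. This gave 6 groups of 2 libraries, each from a separate pool of several embryos. The 3 loci lie on other chromosomes than the insertion. One more wt DFL library was made earlier and is used only where named. Libraries of wt embryos were mapped on mm10 and those of 542 on the mutant genome, so that genotype and mapping genome cannot be told apart. Line 542 is a single line, and no hindlimb tissue was among the samples.

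Pitx1 encodes a bicoid-type homeodomain factor that is expressed in hindlimb but not forelimb mesenchyme and that directs hindlimb morphology. Tbx4 encodes a T-box factor that acts downstream of Pitx1 in the hindlimb and whose forelimb counterpart is Tbx5, while Isl1 encodes a LIM-homeodomain factor that is needed to start the hindlimb bud and that also marks motor neurons and neurons of the ventral forebrain. A gene can be silent while its promoter is open, so that open chromatin at these loci is no measure of their expression.

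Sequences are shown for the starts of Tbx4 and Isl1 and for regions of each locus that were strong in limb or forebrain libraries, since the comparisons below turn on them. The 2 promoters run from 250 bases before to 50 bases after the start given by RefSeq (GRCm38.p6), and the other windows of 300 bases are centred on the summit. Capitals mark matches, on either strand, to TAATCC (the bicoid-class site of PITX factors), AGGTGT (a T-box site core), CAATAAA (a HOX13-class site) or TAATTA (a homeodomain core).
Tbx4 promoter, chr11:85896515-85896814, plus strand: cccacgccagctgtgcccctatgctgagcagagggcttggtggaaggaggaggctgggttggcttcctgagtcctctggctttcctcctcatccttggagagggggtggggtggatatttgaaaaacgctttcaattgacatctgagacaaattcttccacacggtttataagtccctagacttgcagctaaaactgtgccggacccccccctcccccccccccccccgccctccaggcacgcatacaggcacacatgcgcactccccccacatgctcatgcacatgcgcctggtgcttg
Region 10 kb upstream of Tbx4, chr11:85876453-85876752, plus strand: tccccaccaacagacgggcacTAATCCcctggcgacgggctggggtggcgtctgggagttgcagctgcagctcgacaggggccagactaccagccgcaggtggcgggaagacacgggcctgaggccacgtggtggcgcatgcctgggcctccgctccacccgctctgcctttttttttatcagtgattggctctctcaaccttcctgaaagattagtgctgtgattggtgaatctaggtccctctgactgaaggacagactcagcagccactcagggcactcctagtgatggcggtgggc
Region 31 kb downstream of the Tbx4 start, chr11:85917018-85917317, plus strand: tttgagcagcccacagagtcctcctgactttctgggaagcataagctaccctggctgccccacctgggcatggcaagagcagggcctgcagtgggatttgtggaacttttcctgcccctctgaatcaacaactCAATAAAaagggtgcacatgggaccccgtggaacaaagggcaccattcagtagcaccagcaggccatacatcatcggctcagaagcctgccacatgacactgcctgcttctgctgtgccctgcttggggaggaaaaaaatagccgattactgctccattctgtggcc
Isl1 promoter, chr13:116309639-116309938, minus strand: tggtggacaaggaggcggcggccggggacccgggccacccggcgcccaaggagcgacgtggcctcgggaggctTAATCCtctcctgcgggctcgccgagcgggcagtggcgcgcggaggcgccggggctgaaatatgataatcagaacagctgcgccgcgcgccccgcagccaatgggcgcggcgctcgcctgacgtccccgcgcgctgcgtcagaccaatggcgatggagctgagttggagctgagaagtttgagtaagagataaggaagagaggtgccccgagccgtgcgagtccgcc
Region 29 kb upstream of Isl1, chr13:116338147-116338446, plus strand: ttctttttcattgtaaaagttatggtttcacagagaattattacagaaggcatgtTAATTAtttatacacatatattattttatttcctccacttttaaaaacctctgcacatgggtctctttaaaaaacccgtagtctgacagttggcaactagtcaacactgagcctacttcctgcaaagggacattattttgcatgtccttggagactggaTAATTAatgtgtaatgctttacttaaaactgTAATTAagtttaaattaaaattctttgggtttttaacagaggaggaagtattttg
Region 30 kb downstream of the Isl1 start, chr13:116279415-116279714, plus strand: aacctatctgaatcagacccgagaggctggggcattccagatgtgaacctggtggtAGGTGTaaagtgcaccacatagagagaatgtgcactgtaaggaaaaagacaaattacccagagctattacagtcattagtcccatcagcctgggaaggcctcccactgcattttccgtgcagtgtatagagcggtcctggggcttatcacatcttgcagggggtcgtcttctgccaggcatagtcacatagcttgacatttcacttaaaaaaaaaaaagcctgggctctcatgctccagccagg
Region 23 kb upstream of Pitx1, chr13:55858925-55859224, plus strand: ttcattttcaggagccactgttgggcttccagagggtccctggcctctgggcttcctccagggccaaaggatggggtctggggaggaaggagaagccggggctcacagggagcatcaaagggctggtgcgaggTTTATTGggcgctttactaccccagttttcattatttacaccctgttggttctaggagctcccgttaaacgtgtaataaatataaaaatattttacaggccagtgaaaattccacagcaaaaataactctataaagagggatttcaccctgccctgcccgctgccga
Region 168 kb upstream of Pitx1, chr13:56004042-56004341, plus strand: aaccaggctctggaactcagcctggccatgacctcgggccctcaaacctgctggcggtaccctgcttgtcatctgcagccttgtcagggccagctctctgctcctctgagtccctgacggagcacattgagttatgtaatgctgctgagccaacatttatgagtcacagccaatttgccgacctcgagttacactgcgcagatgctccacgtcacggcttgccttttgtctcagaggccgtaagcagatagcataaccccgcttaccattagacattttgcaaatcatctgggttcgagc
Region 230 kb upstream of Pitx1, chr13:56066202-56066501, plus strand: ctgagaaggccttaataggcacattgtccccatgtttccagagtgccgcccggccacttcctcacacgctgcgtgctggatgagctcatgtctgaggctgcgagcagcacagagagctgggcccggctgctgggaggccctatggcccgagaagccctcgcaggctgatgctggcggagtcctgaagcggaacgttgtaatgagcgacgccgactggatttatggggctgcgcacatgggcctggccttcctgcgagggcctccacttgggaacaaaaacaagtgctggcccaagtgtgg
Of these 9 windows, the Isl1 promoter and the region 10 kb upstream of Tbx4 each hold 1 TAATCC, the regions 23 kb upstream of Pitx1 and 31 kb downstream of the Tbx4 start each hold 1 CAATAAA, the region 30 kb downstream of the Isl1 start holds 1 AGGTGT, and the region 29 kb upstream of Isl1 holds 3 TAATTA. The other 3 windows hold none of these letters.

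The grouped libraries held 85070 to 118297 called regions, and their totals of tags, recovered from the deposited values, were 37.5 to 70.7 M (mega), lower on average in 542 than in wt for each tissue. Markers went with the labelled tissues for part of the lists. The start of Hoxd13 was higher in DFL than in PFL by 1.06 in log2 fold (SE 0.16, adjusted p = 0.000651, limma) and that of Hoxa13 by 0.71 (SE 0.17, adjusted p = 0.0116, limma), and the start of Twist1, a mesenchyme gene, was higher in limb than in FB by 1.27 (SE 0.10). Hoxd12, also a distal gene, did not pass (0.22, SE 0.15, adjusted p = 0.39, limma). Nor did the proximal gene Meis1 (-0.34 for DFL minus PFL, SE 0.14, adjusted p = 0.124, limma). The mesenchyme gene Prrx1 had a mean fold of 7.25 in FB and 5.09 in limb. Its difference of limb minus FB, -0.35 (SE 0.14, adjusted p = 0.0578, limma), did not pass. Prrx2 and Tbx5 could not be tested between limb and FB. Of 5 forebrain markers, Emx1 was higher in FB (-0.84 for limb minus FB, SE 0.13), whereas the start regions of Dlx1 (0.68) and Neurog2 (0.46) had a higher fold in limb libraries, Emx2 (-0.34) did not pass the test, and Gsx2 could not be tested. By rank within a library, which is set by the q-value and then by fold, 3 of these 5 stood higher in all FB than in all limb libraries, Neurog2 among them. In rank, Hoxd12 also stood higher in all DFL than in all PFL libraries, and Meis1 lower. Markers of other cell types varied. There was no region at the starts of the blood genes Gata1 and Hba-a1, none in limb at the endothelial gene Cdh5, and a region in 1 library at the ectoderm gene Krt5. The start of Trp63, the other ectoderm gene, was called in 6 of 8 limb libraries (mean fold 3.61 ± 0.710, SD, n = 6) and in no FB library, and in none was it among the 50000 strongest. The muscle genes Myod1 and Pax3 had a start region in all 12 libraries and Myf5 in 6 limb libraries. However, the start of the endothelial gene Tek was higher in limb by 1.23 and that of the motor neuron gene Lhx3 by 1.26. The part of other cells in the values below was not tested, and a region open in few cells cannot be told apart from one weakly open in many.

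The locus of Tbx4 separated limb from forebrain by the number of its regions, and those of Pitx1 and Isl1 did not. At Tbx4, 8 and 9 regions were called in wt DFL, 7 and 8 in 542 DFL, 8 and 9 in wt PFL, 7 and 7 in 542 PFL, 3 and 0 in wt FB and 0 and 1 in 542 FB. The mean was 7.88 ± 0.835 (SD, n = 8) in limb libraries and 1.00 ± 1.41 (SD, n = 4) in FB, and the lowest limb library lay above the highest FB library. Such a gap in favour of limb was found for 4.1% of 21755 protein-coding genes with the same kind of window.

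At Pitx1, whose window is far wider, 55 and 50 regions were called in wt DFL, 40 and 37 in 542 DFL, 62 and 57 in wt PFL, 43 and 41 in 542 PFL, 52 and 37 in wt FB and 42 and 37 in 542 FB. The limb mean of 48.1 ± 9.17 (SD, n = 8) and the FB mean of 42.0 ± 7.07 (SD, n = 4) overlapped. At Isl1 the counts were 7 and 6 in wt DFL, 9 and 7 in 542 DFL, 5 and 6 in wt PFL, 6 and 4 in 542 PFL, 5 and 6 in wt FB and 5 and 5 in 542 FB. Again limb (6.25 ± 1.49, SD, n = 8) and FB (5.25 ± 0.500, SD, n = 4) overlapped. DFL and PFL overlapped at each of the 3 loci, although at Isl1 they met only at 6 regions, with means of 7.25 ± 1.26 and 5.25 ± 0.957 (SD, n = 4 each).

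**Figure D1:**
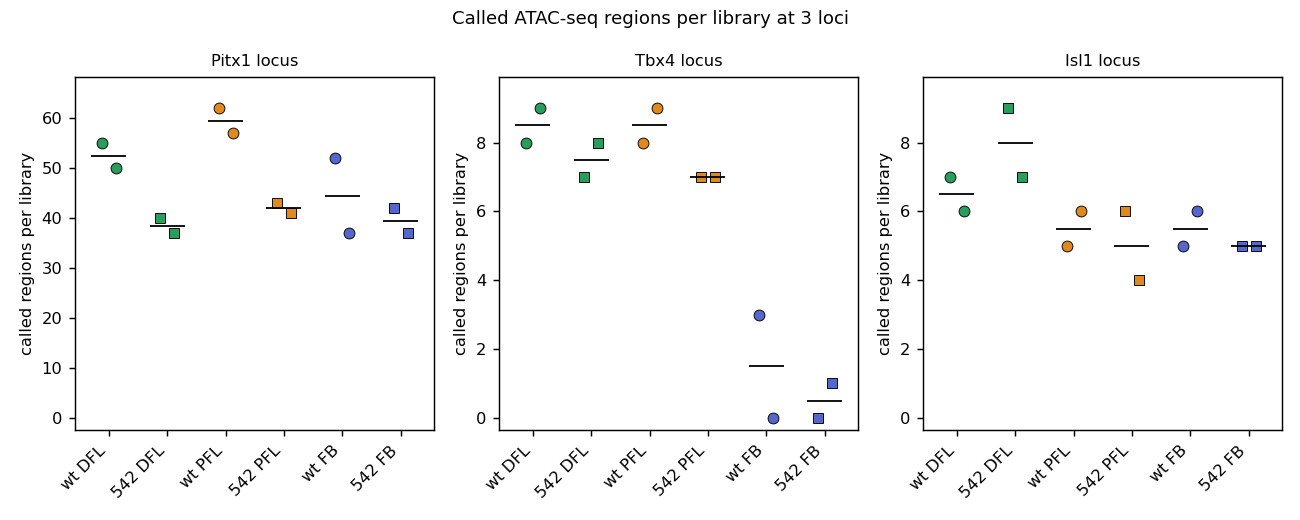
Called regions per library (y axis, number) at the Pitx1, Tbx4 and Isl1 loci in the 6 groups (x axis), with circles for wt, squares for 542, colours for tissue and a bar at the mean of 2 libraries. At Tbx4 the 8 limb libraries have 7 to 9 regions and the 4 FB libraries 0 to 3, while the tissues overlap at the other loci.

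The 126 consensus regions ranged from promoters open in every library to weak regions called once. In all, 26 of them cover an annotated start, most of these in the Pitx1 window and of genes other than Pitx1. Of the 126, 20 were called in all 12 libraries, 18 at Pitx1 and 2 at Isl1 (10.7% of all 252026 consensus regions were), and 33 in a single library (30.5% of all). In none of the 12 libraries did 74 of the 126 reach the 50000 strongest regions, as was the case for 58.2% of all consensus regions. A set of 6 regions, 3 at Pitx1 and 3 at Tbx4, was called in all 8 limb libraries and no FB library, which holds for 3.81% of all consensus regions, and 5, all at Pitx1, showed the opposite pattern (6.43% of all). A further 3 regions, 2 at Pitx1 and 1 at Isl1, were called in all DFL and no PFL libraries (2.05% of all), and 2 at Pitx1 in all PFL and no DFL libraries (1.49% of all).

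The starts of the 3 genes differed in how open they were. The values given are the deposited fold of a region, which is the tags at its summit over the local background of the same library, and its rank within a library, where rank 1 is the strongest region. Pitx1 (chr13:55825051-55836192, minus strand in GENCODE M21) had only weak regions at its annotated starts. The region over an inner start, chr13:55830625-55831608, 5 kb into the gene and over its exons, had folds of 3.40 and 2.78 in wt DFL, 3.95 and 2.79 in wt PFL, 4.07 and 3.33 in 542 PFL, and 2.10 in a single wt FB library. No region was called there in 542 DFL or 542 FB. It was called in 6 of 8 limb libraries and 1 of 4 FB libraries, and its ranks of 59104 to 109111 left it outside the 50000 strongest regions in every library that had it. At the outermost start, chr13:55835913-55836364 was called in 1 wt PFL library with a fold of 2.41 and in 1 wt FB library with 3.39.

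Tbx4 (chr11:85886422-85916097, plus strand) was open at an inner start, the one given by RefSeq, in limb libraries only. This region, chr11:85896283-85897122, covers an exon and lies 10 kb inside the annotated gene. Its folds were 8.17 and 10.2 in wt DFL, 8.59 and 7.86 in 542 DFL, 4.91 and 6.05 in wt PFL, and 6.73 and 4.59 in 542 PFL. The libraries of FB had no call. The DFL libraries were all above the PFL libraries. All 8 limb libraries placed it among their 50000 strongest regions, at ranks 16558 to 23782 in DFL and 31987 to 47307 in PFL. Over the outer starts of Tbx4, 4 further regions of 200 to 396 bases were each called in 1 library, with folds of 2.45 to 3.97, and 3 of these libraries were from limb.

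Isl1 (chr13:116298281-116309689, minus strand) was open at its start in every library. The region chr13:116309249-116310345, over the first exon, had folds of 13.1 and 11.5 in wt DFL, 9.85 and 13.7 in 542 DFL, 12.7 and 11.1 in wt PFL, 12.9 and 11.5 in 542 PFL, 14.5 and 13.4 in wt FB, and 14.5 and 14.2 in 542 FB. These are ranks 5145 to 8348, far above those of the other starts. In each of the 8 limb libraries the Isl1 start had a higher fold than the inner Tbx4 start, and that a higher fold than the inner Pitx1 start where it was called. The mean fold was 12.0 ± 1.26 (SD, n = 8) in limb and 14.2 ± 0.504 (SD, n = 4) in FB, and the difference of limb minus FB on the log2 scale was -0.06 (SE 0.08, adjusted p = 0.581) by limma. It passed as lower in limb without centring the libraries on their median fold (-0.24, adjusted p = 0.0362, limma). With depth-scaled tags (tags at the summit relative to the total of the library) in place of fold it passed as well (-0.37, adjusted p = 0.000214, limma). A region over an inner start of Isl1, chr13:116303127-116303483, 6 kb into the gene, had folds of 2.79 in a single 542 DFL library, 3.38 and 3.05 in wt PFL, and 4.35 in a single 542 PFL library. A call was missing in wt DFL and FB. No library had it among its 50000 strongest.

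**Figure D2:**
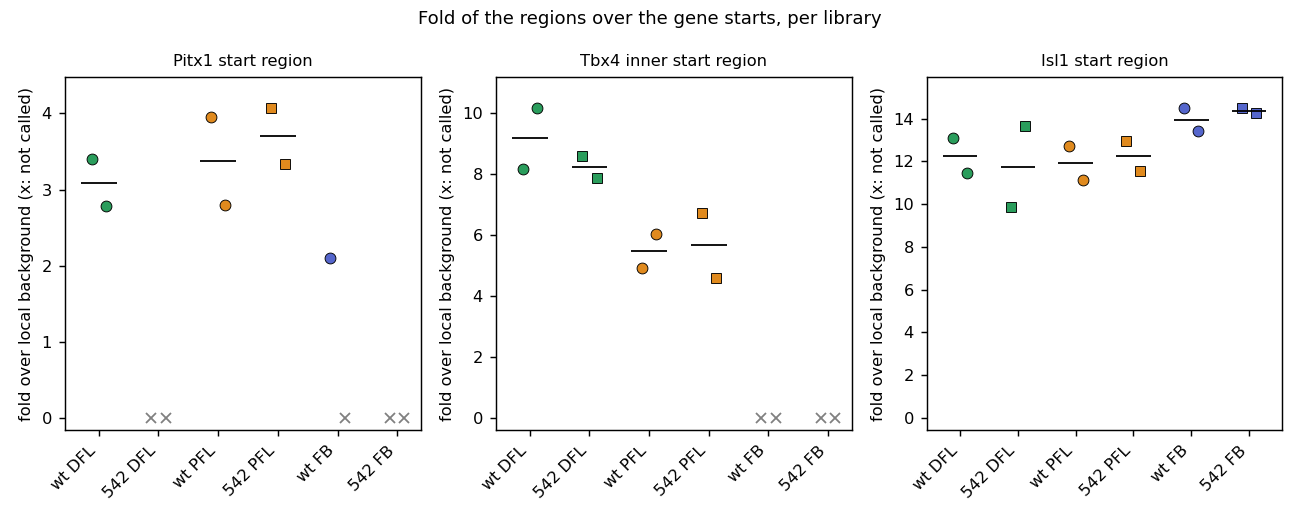
Deposited fold (y axis, tags at the summit over local background) of the regions over an inner start of Pitx1, the inner start of Tbx4 and the start of Isl1 in the 6 groups (x axis), with circles for wt, squares for 542, crosses at 0 for libraries without a called region and bars at the mean of 2 called libraries. The Tbx4 region is called in 8 limb libraries at 4.59 to 10.2 and in no FB library, and the Isl1 region in all 12 at 9.85 to 14.5.

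For the comparisons, limma was fitted to log2 fold centred on each library's median, over the regions called in all libraries of a comparison. Between DFL and PFL the inner Tbx4 start was higher in DFL by 0.59 (SE 0.16, adjusted p = 0.0231), with means of 8.70 ± 1.02 (SD, n = 4) and 5.57 ± 0.994 (SD, n = 4). It was the only 1 of the 30 member regions tested that was higher in DFL, where 6.92% of all 41243 regions tested were. The call was lost without wt DFL replicate 2 (adjusted p = 0.110, limma), wt PFL replicate 1 (0.0945), 542 PFL replicate 2 (0.0853) or 542 DFL replicate 1 (0.0634), with log2 differences of 0.47 to 0.56.

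Other regions of the Tbx4 locus were also limb regions, and none of the 16 was called in all 12 libraries or in all FB libraries. The region 10 kb upstream of the annotated gene, chr11:85875901-85876844, lies between genes and had folds of 7.20 and 6.86 in wt DFL, 7.26 and 10.0 in 542 DFL, 3.86 and 4.82 in wt PFL, and 7.13 and 6.19 in 542 PFL. There was no call in FB. DFL and PFL overlapped there, and the log2 difference of DFL minus PFL was 0.47 (SE 0.16, adjusted p = 0.0683) by limma. It passed as higher in DFL, at 0.53 to 0.59, without centring (adjusted p = 0.0474, limma), with depth-scaled tags (0.0371), with the earlier library added (0.0408) and without 542 DFL replicate 1 (0.0414). Just past the 3′ end of the gene, chr11:85916911-85918607 had folds of 7.09 and 8.71 in wt DFL, 6.61 and 6.22 in 542 DFL, 5.33 and 7.81 in wt PFL, 6.37 and 3.80 in 542 PFL, and 2.10 in a single wt FB library. It was not called in 542 FB. The only FB call was near the bottom of its library, at rank 109039, and the DFL and PFL values overlapped, with a log2 difference of 0.27 (SE 0.19, adjusted p = 0.384) by limma. An intronic region 24 kb into the gene, chr11:85909974-85910605, was called in 7 of 8 limb libraries with folds of 7.18 and 7.53 in wt DFL, 6.08 and 3.78 in 542 DFL, 5.63 and 2.71 in wt PFL, and 4.36 in a single 542 PFL library. No region was called there in FB. Farther out, 56 kb downstream of the annotated start and past the gene, chr11:85941682-85942268 was called in all 8 limb libraries at 3.47 to 7.19 and in no FB library. In total, 12 of the 16 Tbx4 regions had no FB call, against 45 of 97 at Pitx1, 7 of 13 at Isl1 and 47.2% of all consensus regions. Of the 16, 7 were called in a single library, as were 23 of 97 at Pitx1 and 3 of 13 at Isl1.

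At Isl1 the regions other than the start were weaker, and they held both limb and forebrain patterns. The region 29 kb upstream, chr13:116338005-116338845, lies between genes and had folds of 5.42 and 8.40 in wt DFL, 4.61 and 4.15 in 542 DFL, 2.71 in a single wt PFL library, and 3.96 in a single 542 PFL library. The libraries of FB had no call. DFL libraries were called throughout, at 5.65 ± 1.91 (SD, n = 4), PFL libraries in 2 of 4. Farther upstream, at 47 kb, chr13:116356141-116356641 had folds of 3.37 and 2.63 in wt DFL and 3.32 and 5.58 in 542 DFL. A call was missing in PFL and FB. This was the one region of the 3 loci outside Pitx1 that was called in all DFL and no PFL libraries.

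Downstream of Isl1, at 30 kb, chr13:116279222-116279920 was strongest in FB, with folds of 3.32 and 3.40 in 542 DFL, 3.37 and 3.79 in 542 PFL, 6.31 and 6.81 in wt FB, and 6.58 and 3.54 in 542 FB. There was no call in wt DFL or wt PFL. Of the FB libraries 3 lay above every limb library, and 542 FB replicate 2 lay among them. Both limb parts were called only in 542 there. A region 16 kb downstream of the start and past the gene, chr13:116293585-116294327, was called in all 12 libraries with folds from 3.08 to 6.06 and a log2 difference of limb minus FB of 0.18 (SE 0.14, adjusted p = 0.313) by limma. Next to it, at 12 kb, chr13:116296922-116297919 was called in 7 limb and 4 FB libraries at 2.93 to 4.63, so that neither separated the tissues.

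**Figure D3:**
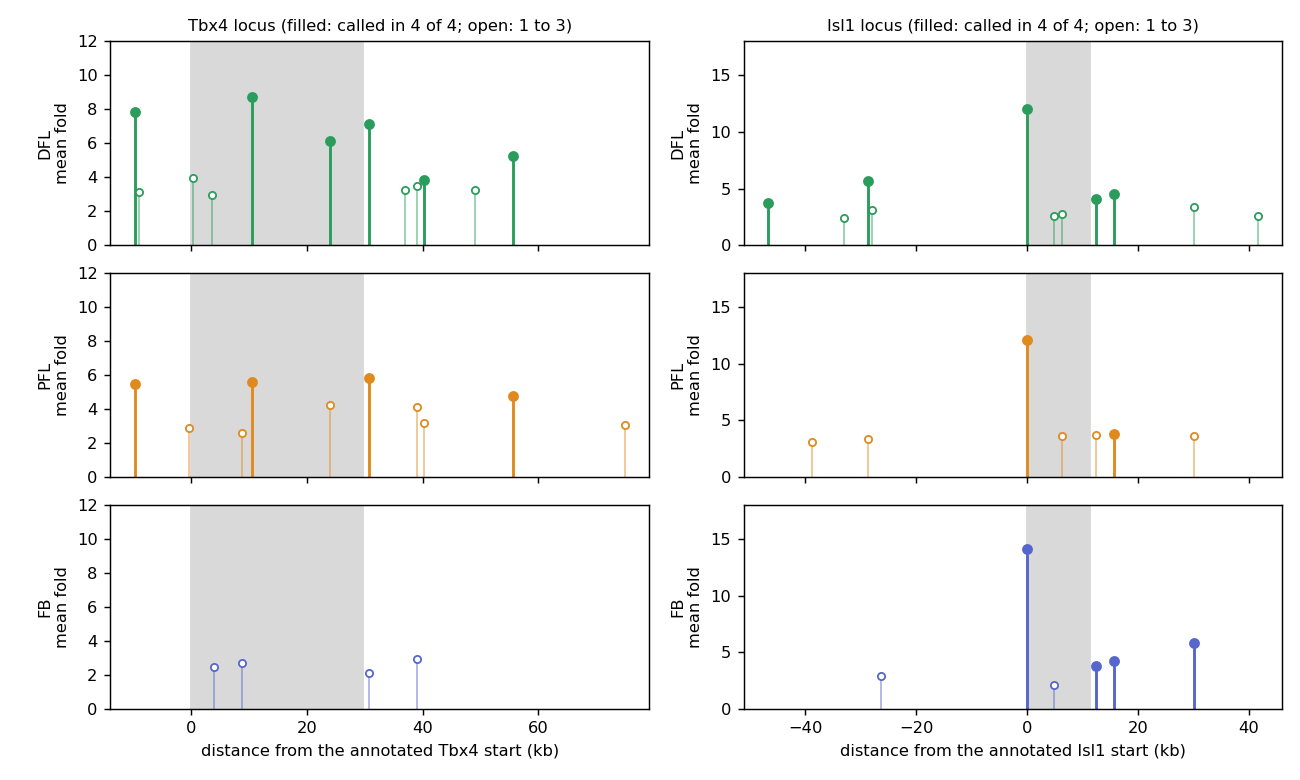
Mean fold (y axis) of each consensus region at Tbx4 (left) and Isl1 (right) by distance of its summit from the annotated gene start (x axis, kb, positive is downstream), in DFL, PFL and FB, with filled points for regions called in 4 of 4 libraries, open points for 1 to 3, and the gene body in grey. Strong Tbx4 regions appear in DFL and PFL and are weak or missing in FB, while the Isl1 start reaches a mean of 12.0, 12.1 and 14.2 in the 3 tissues.

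Regions called in all libraries lay mostly on the downstream side of the Pitx1 window. Downstream of the Pitx1 start, with its body, lay 39 consensus regions, of which 15 were called in all 12 libraries and 13 of those covered an annotated start of another gene. Upstream, toward H2afy, lay 58 regions, of which 3 were called in all 12 libraries and 1 of these covered a start. Regions with calls in 3 or more limb libraries and none in FB numbered 15 upstream and 4 downstream (19.7% of all consensus regions). Regions with 3 or more FB libraries and no limb library numbered 6 upstream and 2 downstream (9.21% of all).

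The strongest regions were promoters of genes used by most cells. With the highest mean fold in limb and FB, Tmed9 (a cargo protein of the secretory pathway), 243 kb downstream, had folds of 21.2 and 21.6 in wt DFL, 18.8 and 16.5 in 542 DFL, 21.6 and 20.9 in wt PFL, 23.2 and 18.6 in 542 PFL, 21.8 and 22.9 in wt FB, and 23.1 and 22.8 in 542 FB. Ddx46, an RNA helicase of splicing, 201 kb downstream, had folds of 16.1 and 18.5 in wt DFL, 12.2 and 15.7 in 542 DFL, 19.2 and 18.5 in wt PFL, 16.2 and 17.7 in 542 PFL, 18.8 and 17.2 in wt FB, and 14.8 and 17.1 in 542 FB. Caml, a factor for insertion of membrane proteins, 213 kb downstream, had folds of 16.9 and 17.4 in wt DFL, 14.0 and 12.1 in 542 DFL, 17.5 and 18.3 in wt PFL, 18.5 and 16.9 in 542 PFL, 16.8 and 16.6 in wt FB, and 20.1 and 17.4 in 542 FB. At the helicase gene Ddx41, 300 kb downstream, the folds ran from 14.7 to 17.1 in limb and from 17.8 to 19.9 in FB. These 4 had log2 differences of limb minus FB between -0.10 and 0.15, and none passed the test by limma. The limb and FB libraries did not overlap in fold at Ddx41, which passed as lower in limb without centring (-0.28, adjusted p = 0.000383), with quantile normalization (-0.13, adjusted p = 0.0461) and with depth-scaled tags (-0.31, adjusted p = 0.00126). Tmed9 passed as lower in limb without centring (-0.17, adjusted p = 0.0217) and with depth-scaled tags (-0.32, adjusted p = 0.00421). Ddx46 passed as higher in limb without 542 DFL replicate 1 (0.20, adjusted p = 0.0244) or 542 PFL replicate 1 (0.19, adjusted p = 0.0467).

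**Figure D4:**
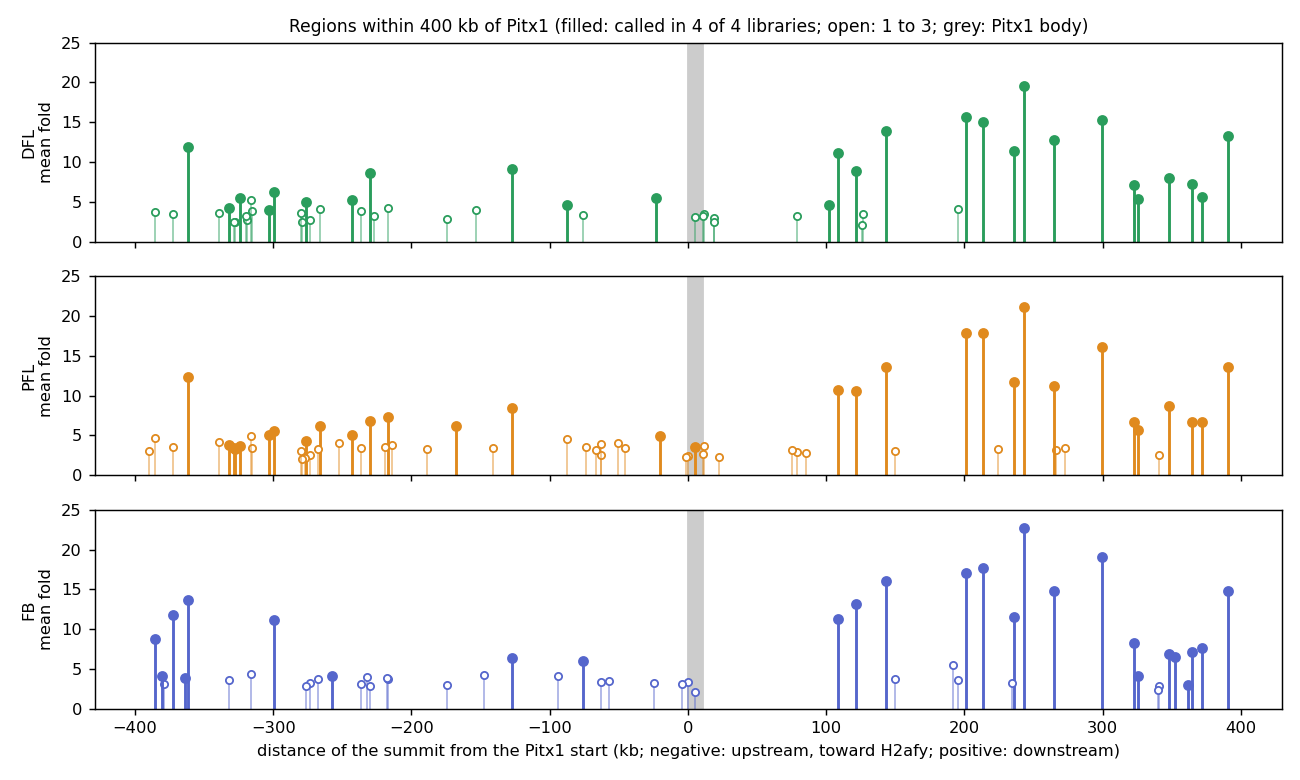
Mean fold (y axis) of each consensus region within 400 kb of Pitx1 by distance of its summit from the Pitx1 start (x axis, kb, negative is upstream), in DFL, PFL and FB, with filled points for regions called in 4 of 4 libraries, open points for 1 to 3, and the Pitx1 body in grey. The downstream side holds the promoters shared by the 3 tissues, the highest at a mean of 19.5, 21.1 and 22.7, and the upstream side holds weaker regions, some of which differ between tissues.

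Between limb and FB, 20 member regions could be tested by limma. Of these, 3 were higher in limb (24.0% of all 27032 regions tested) and 2 lower (15.9% of all), and the median log2 difference was 0.02 over the 20 and 0.03 over all. Without centring the libraries, the median over all regions moved to -0.14, the split from 6483 higher and 4306 lower to 3559 and 10574, and that of the members to 3 and 9. Differences below are relative to the library median.

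Regions higher in limb were 3, all in the Pitx1 window, which held 18 of the 20 regions tested. No Tbx4 region was called in all 12 libraries, so that none could be tested. An exon of the long noncoding gene Gm47071, 127 kb upstream, chr13:55962196-55963615, was higher by 0.66 (SE 0.16, adjusted p = 0.00416), with folds of 10.1 and 7.92 in wt DFL, 9.42 and 8.97 in 542 DFL, 7.61 and 11.1 in wt PFL, 8.71 and 6.59 in 542 PFL, 9.46 and 5.25 in wt FB, and 5.83 and 5.23 in 542 FB. One FB library, wt replicate 1, lay among the limb values, and the others lay below all of them. An intron of Pdlim7, a scaffold protein of the actin cytoskeleton, 325 kb downstream, chr13:55510400-55511487, was higher by 0.58 (SE 0.13, adjusted p = 0.00264), with folds of 5.46 and 6.40 in wt DFL, 4.95 and 4.68 in 542 DFL, 6.13 and 7.08 in wt PFL, 5.62 and 4.03 in 542 PFL, 3.87 and 4.36 in wt FB, and 4.50 and 3.88 in 542 FB. Only the lowest limb library, 542 PFL replicate 2, reached into the FB range. The start of Dbn1, which encodes the actin-binding protein drebrin, 348 kb downstream, had folds of 7.12 to 9.97 in limb and 6.04 to 7.57 in FB and was higher by 0.46 (SE 0.11, adjusted p = 0.00433). With depth-scaled tags in place of fold its difference was -0.56, in the opposite direction.

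Lower in limb was the start of H2afy (the histone variant macroH2A1), 299 kb upstream, chr13:56134599-56136024, with a log2 difference of -0.78 (SE 0.16, adjusted p = 0.00128). Its folds were 6.19 and 6.45 in wt DFL, 4.71 and 7.76 in 542 DFL, 5.37 and 6.98 in wt PFL, 6.18 and 3.65 in 542 PFL, 10.4 and 11.6 in wt FB, and 11.3 and 11.5 in 542 FB. The limb and FB libraries did not overlap in fold. The start of Txndc15, a membrane protein with a thioredoxin domain, 122 kb downstream, was also lower, with a difference of -0.26 (SE 0.09, adjusted p = 0.0374), with folds of 8.30 to 13.6 in limb and 11.5 to 15.2 in FB. That call was lost without 542 DFL replicate 1, 542 PFL replicate 2, 542 FB replicate 2, wt PFL replicate 1, or either replicate of wt DFL or wt FB (adjusted p from 0.0516 to 0.136, limma) and with depth-scaled tags (0.0831). The H2afy call was lost with depth-scaled tags (0.0801).

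Ranks allowed regions to be compared that were not called in a tissue, and 3 of the 126 ranked higher in all 8 limb than in all 4 FB libraries (3.15% of all 252026), with 3 ranked lower (5.64% of all). Higher in limb were the Pdlim7 intron, the inner Tbx4 start and a region 230 kb upstream of Pitx1, chr13:56065991-56066735, which lies in an intron of Gm47071, 18169 bases from the H2afy start. It had folds of 11.5 and 8.89 in wt DFL, 6.53 and 7.83 in 542 DFL, 8.00 and 8.28 in wt PFL, 6.35 and 4.43 in 542 PFL, and 2.84 in a single wt FB library. It was not called in 542 FB. Each limb library placed it among the 50000 strongest, at ranks 10943 to 46668, and the single FB call was at 88433. The log2 difference of DFL minus PFL there was 0.31 (SE 0.15, adjusted p = 0.198) by limma, and with depth-scaled tags it passed at 0.68 (adjusted p = 0.00153, limma).

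Higher in FB were 3 regions of the Pitx1 window, of which 2 are described. At 385 kb upstream, chr13:56221015-56222478, over an exon of 4930550C17Rik, had folds of 4.39 and 3.33 in wt DFL, 3.32 in a single 542 DFL library, 5.95 and 3.70 in wt PFL, 4.36 in a single 542 PFL library, 9.18 and 8.24 in wt FB, and 8.34 and 9.36 in 542 FB. The neural gene Neurog1 has the nearest coding start to this region, 30839 bases away. An inner start of Dbn1, 352 kb downstream, chr13:55483593-55484121, had folds of 7.01 and 8.37 in wt FB and 4.95 and 5.68 in 542 FB. No region was called there in DFL or PFL.

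Some regions of the Pitx1 window were called in all libraries of 1 limb part and none of the other, at about the share of all consensus regions. Of its 97 regions, 2 were called in all DFL and no PFL libraries (2.05% of all consensus regions). The reverse held for 2 (1.49% of all). At 23 kb upstream of the gene, chr13:55858889-55859440 had folds of 6.89 and 6.65 in wt DFL and 4.42 and 4.04 in 542 DFL. The libraries of PFL and FB had no call. Somewhat nearer to the gene, 20 kb upstream, chr13:55855774-55856270 had the opposite pattern, with folds of 6.27 and 4.52 in wt PFL and 4.75 and 3.99 in 542 PFL. A call was missing in DFL and FB. Both lie in an intron of Gm47071. The first was called in DFL alone and the second in PFL alone, and neither was called in FB. Both were weak, at ranks 33262 to 62988 in DFL for the first and 36751 to 57867 in PFL for the second. Among the 50000 strongest, the first stood in 2 DFL libraries and the second in 1 PFL library. Neither separated DFL from PFL by rank.

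A stronger PFL region lay 168 kb upstream, chr13:56003778-56004560, with folds of 7.18 and 6.48 in wt PFL and 4.95 and 6.19 in 542 PFL. There was no call in the grouped DFL or FB libraries. The earlier wt DFL library called this region weakly, with a fold of 3.32 at rank 97512. At 217 kb upstream, chr13:56052415-56053513 had folds of 5.57 and 2.80 in wt DFL, 6.69 and 8.39 in wt PFL, 7.52 and 6.49 in 542 PFL, 3.58 in a single wt FB library, and 2.53 and 5.23 in 542 FB. It was not called in 542 DFL. All 4 PFL libraries were above every DFL and FB library at both. On the downstream side, 102 kb away in an intron of Pcbd2 (a cofactor of tetrahydrobiopterin metabolism and of HNF1), chr13:55734179-55734670 had folds of 4.10 and 3.85 in wt DFL and 3.87 and 6.61 in 542 DFL. No region was called there in PFL or FB.

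**Figure D5:**
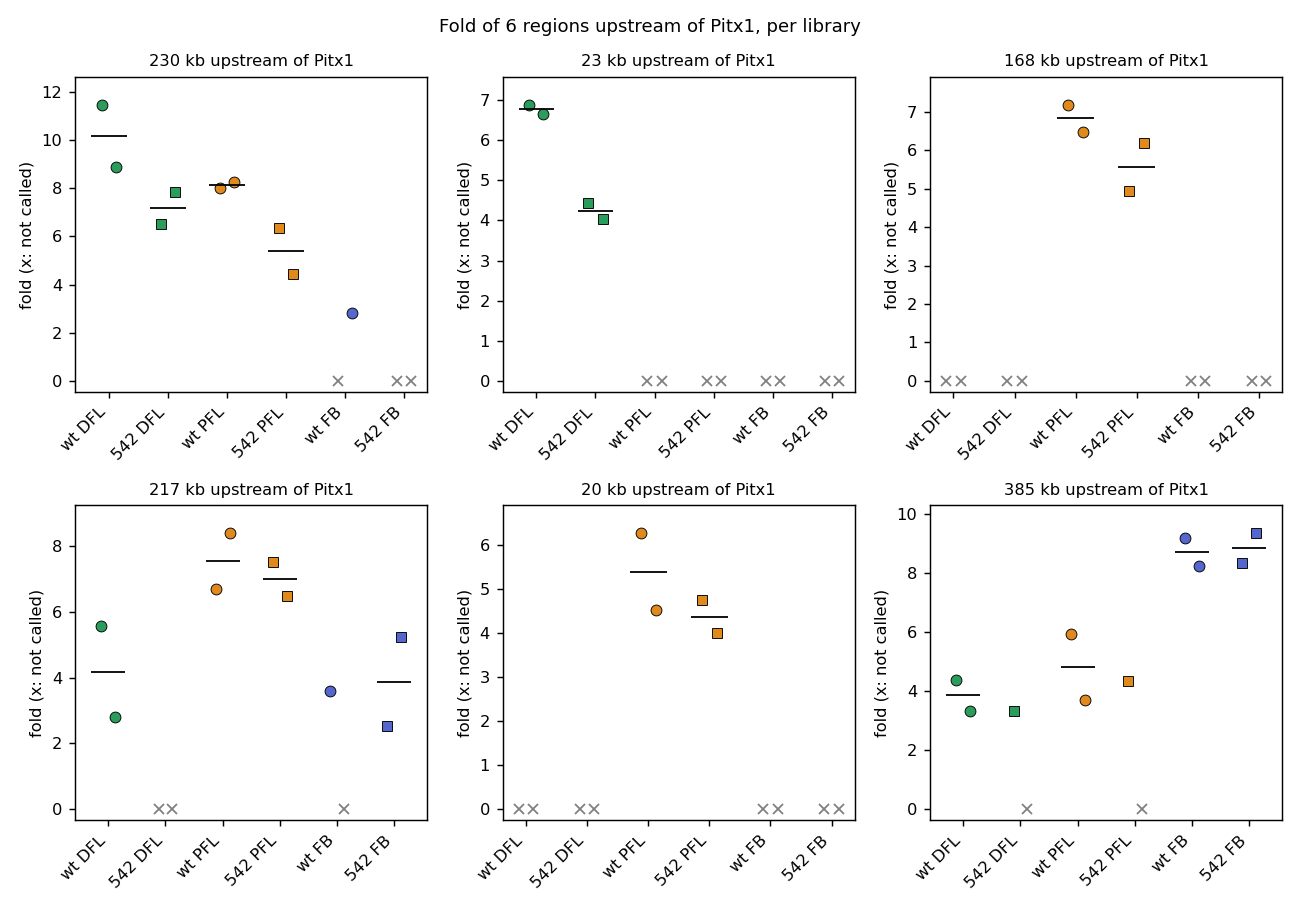
Deposited fold (y axis) of 6 regions upstream of Pitx1 in the 6 groups (x axis), with circles for wt, squares for 542, crosses at 0 for libraries without a called region and bars at the mean of 2 called libraries. The region at 230 kb is called in all limb libraries, that at 23 kb in DFL, those at 20 and 168 kb in PFL, that at 217 kb highest in PFL, and that at 385 kb highest in FB.

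By rank, 1 of 126 regions, the inner Tbx4 start, stood higher in all DFL than in all PFL libraries (2.49% of all 252026), and 7 stood higher in PFL (2.22% of all). The 7 were all in the Pitx1 window, namely the starts of Grk6, Prr7, Ddx41 and Caml and the regions 168, 217 and 303 kb upstream. The region at 303 kb, chr13:56138906-56139835, had folds of 4.51 and 4.71 in wt DFL, 3.39 and 3.49 in 542 DFL, 6.11 and 4.76 in wt PFL, and 4.64 and 4.83 in 542 PFL. The libraries of FB had no call. Its log2 difference of DFL minus PFL was -0.40 (SE 0.16, adjusted p = 0.119) by limma, and with depth-scaled tags it passed at -0.68 (adjusted p = 0.00674, limma). It lies between genes and had no FB call. Calls in all limb and no FB libraries were also found 243 kb upstream, in introns of Gm47071 and H2afy (5.16 ± 1.19, SD, n = 8), and between genes 324 kb upstream (4.57 ± 1.32, SD, n = 8).

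By limma, 2 of the 30 member regions tested were lower in DFL than in PFL (6.96% of all 41243), the start of Caml with a difference of -0.31 (SE 0.07, adjusted p = 0.00595) and that of Ddx46 with -0.27 (SE 0.08, adjusted p = 0.0428). The Ddx46 call was lost without 542 DFL replicate 1 (adjusted p = 0.181, limma), wt DFL replicate 1 (0.159), 542 PFL replicate 2 (0.118), wt PFL replicate 1 (0.0983) or wt PFL replicate 2 (0.0932). It was also lost without centring (0.113), with quantile normalization (0.0682), with depth-scaled tags (0.0997) and among the 50000 strongest regions (0.0754). Folds of Prr7 ran from 5.18 to 5.84 in DFL and from 5.33 to 8.68 in PFL, and its log2 difference was -0.28 (SE 0.16, adjusted p = 0.286) by limma. The median log2 difference was 0.00 over the 30 regions, against -0.03 over all.

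No member region passed the test between 542 and wt. By limma 0 of 20 member regions were higher in 542 (0.429% of all 27032) and 0 lower (0.277% of all), and the median log2 difference was -0.02 over the 20 and 0.03 over all. An unadjusted p under 0.05 was found for 2 of the 20 (16.0% of all), the starts of Ddx46 (-0.15, SE 0.07) and Ddx41 (0.11, SE 0.05). By rank 0 of 126 stood higher in 542 in the 3 tissues (0.159% of all) and 0 lower (0.241% of all). The Isl1 start had a log2 difference of 542 minus wt of 0.07 (SE 0.08, adjusted p = 0.690) by limma. At the inner Tbx4 start the genotypes overlapped in PFL and in DFL. The test of whether the effect of genotype differed between DFL and PFL called 0 of 30 member regions and 0.0% of all in each direction by limma, with 1 member, the start of Caml, at an unadjusted p under 0.05, as were 7.71% of all.

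Counts of called regions at Pitx1 were higher on average in wt, with a mean of 52.2 ± 8.52 (SD, n = 6) in wt and 40.0 ± 2.53 (SD, n = 6) in 542. The wt libraries were deeper on average, at 44.1 to 70.7 M tags against 37.5 to 64.5 M, and the overlap was 1 wt FB library with 37 regions. When each library was limited to its 50000 strongest regions, the means were 27.5 ± 2.35 in wt and 27.0 ± 2.37 in 542 (SD, n = 6 each). In DFL, 7 member regions were called in both wt and no 542 library (3.61% of all) and 2 in both 542 and no wt library (1.16% of all). In PFL these were 5 (4.49%) and 1 (0.755%), and in FB 2 (2.24%) and 0 (1.12%). The inner Pitx1 start was among the 7 in DFL, and in PFL it was called in all 4 libraries.

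Other genes of limb type gave no uniform picture at their starts. Of the forelimb side, Tbx5 had its strongest start region in 4 limb libraries, with mean folds of 3.15 ± 0.157 in DFL and 2.52 ± 0.262 in PFL (SD, n = 2 each), in none of the 50000 strongest and in no FB library. Hoxc4 was called in all 8 limb libraries at 4.42 ± 0.696 (SD, n = 8) and in no FB library, and Hoxc6 in all 12. Of the hindlimb side, Hoxc9 had no region, Hoxc11 had one in 1 PFL library at 2.73, and the start of Hoxc10 shares its region with a Hoxc5 transcript, at 5.28 ± 1.18 in DFL and 5.50 ± 1.13 in FB (SD, n = 4 each). Of 13 genes of this list, 12 had a start region, which makes 11 distinct regions, and 6 of these could be tested between limb and FB. Higher in limb were 2, Hand2 by 0.70 (SE 0.13, adjusted p = 0.0008, limma) and Lmx1b by 1.05 (SE 0.15), factors of the posterior and dorsal limb, and lower 0. Of the others, Fgf10, Prrx1 and Gdf11 were called in all 12 libraries, and 0 of the 7 tested passed between DFL and PFL by limma in each direction. By rank, 2 of the 11 regions, Hand2 and Lmx1b, stood higher in all limb than in all FB libraries (3.15% of all consensus regions). The start of Gdf11 stood lower (5.64% of all), with mean folds of 6.11 in limb and 7.93 in FB.

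In base composition, the member regions shared by all libraries lay apart from the rest, and 15 of these 20 covered an annotated start. Composition was not computed for all consensus regions called in all 12 libraries, so that nothing particular to these loci can be read from it. In the 300 bases at the summit, GC content had a median of 66.7% and the ratio of observed to expected CpG one of 0.87 over the 20 member regions called in all 12 libraries, against 52.7% and 0.326 over the other 106 and 46.0% and 0.211 over all 252023 consensus regions with sequence. TAATCC was found in 14.3% of the 126 member windows and 10.2% of all, with 15 of the 18 members at Pitx1. AGGTGT was found in 17.5% of members and 14.9% of all, CAATAAA in 4.76% and 7.49%, and TAATTA in 6.35% and 14.2%. The share of the 32851 RefSeq promoters with these motifs was 7.06%, 13.7%, 4.6% and 5.29% in that order. They are matches of letters alone, and binding was not measured here.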

How the data were processed

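The authors trimmed reads with Cutadapt, mapped pairs with bowtie2 on mm10 (wt) or the mutant genome (542), removed low-quality, discordant, mitochondrial and duplicate alignments with bamtools and picard, converted read ends to tags centred on the Tn5 insertion with bedtools, and called peaks in each library alone with MACS2, without a control. The deposited fold is a ratio of tags at a summit to the local background within a library, and no normalization between libraries enters it. MACS2 also gave each summit a deposited −log10 of its p-value and of its q-value, and the deposited score, a whole-number form of the q-value, was not used. A region not called is not a region shown to be closed.

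Summits that share a start and an end count as 1 region, and overlapping regions of the 12 libraries were joined into consensus regions, represented in each library by the strongest (chromosome 2 beyond 75 Mb was not analysed here, so that Meis2 has no value). The tags at a summit were computed as the integer from which its fold and p-value follow within a tolerance of 0.001, for 99.61% to 100.0% of summits. Ranks were taken by −log10 q, then fold. Ranks past 50000 counted as last. Differences in log2 fold, centred on the library median, were tested with limma 3.58.1 in R 4.3.3 over regions called in all libraries of a comparison, with Benjamini-Hochberg adjustment over all of them and a threshold of 0.05. On simulated data (27032 regions), regions changed by 0.5 in log2 were recovered at 93% for limb against forebrain, 87% for DFL against PFL and 91% for 542 against wt, those changed by 1.0 at 100%, and 4.46%, 6.97% and 2.05% of calls were false. The simulation gave every region the same median spread and used regions called in all 12 libraries. The test of DFL against PFL covered 41243 regions, weaker ones among them. These rates therefore need not hold for regions with a larger spread. Rank comparisons and locus counts carry no p. Python 3.11.15 with pandas 2.3.3 and matplotlib 3.10.9 was used, with GENCODE M21 annotation.

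Named with values were the regions over a start of the 3 genes, per locus the 4 strongest in limb and 3 strongest in FB, up to 6 per direction past a test, the listed limb-type and marker genes, and regions called in all libraries of 1 limb part only, which with the region 56 kb downstream of the Tbx4 start and those 243 and 324 kb upstream of Pitx1 were chosen after their values were seen. The members and lists were chosen with earlier results of these data known. Some listed genes and 1 region that meet the naming rule are not reported here. Alternatives were other scalings, filters and windows, depth-scaled tags, a replicate block, the earlier library added and each library left out.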

Additional observations from a re-analysis of the deposited data

Results flagged for a closer look

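Of 66 sets of 4 libraries of 1 tissue that were examined, 6 had a library far from the other 3 by Dixon's criterion. These were 542 DFL replicate 2 at the region 10 kb upstream of Tbx4 (fold 10.0), wt PFL replicate 1 at the region 303 kb upstream of Pitx1 (6.11), 542 PFL replicate 2 at the region 16 kb downstream of the Isl1 start (4.79), wt FB replicate 1 at the Gm47071 exon 127 kb upstream of Pitx1 (9.46) and 542 FB replicate 2 at the region 30 kb downstream of the Isl1 start (3.54). The sixth was the number of regions at Isl1, which was 6 in wt FB replicate 2 and 5 in the other FB libraries.

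For the named regions 42 pairs of tissues were compared. At 4 regions both 542 libraries lay above both wt libraries in one tissue of a pair and below them in the other. The start of Dbn1 entered for DFL against PFL and for DFL against FB. How often this holds over all consensus regions was not computed, so that nothing particular to these regions can be read from it. The log2 ratio of 542 to wt at the start of Caml was -0.40 in DFL and 0.16 in FB. At the start of Dbn1 it was -0.22 in DFL, 0.23 in PFL and 0.29 in FB. At the start of Txndc15 it was 0.22 in FB and -0.34 in PFL, and at the region 16 kb downstream of the Isl1 start 0.63 in DFL and -0.65 in FB. The contrast of DFL with PFL was tested and called 0 regions by limma, and the contrasts with FB were not tested.

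The earlier wt DFL library, the deepest at 78.0 M tags, held 91 member regions, of which 8 were called in no other library. The highest of the 8 had a fold of 4.50, at chr13:55994542-55994851 in the Pitx1 window, and 0 of them were among its 50000 strongest.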

How the results depend on the processing

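Among the differences for single named regions, 693 values under an alternative stayed on the same side of the threshold. Changes of direction in which neither value passed the test are among these and were not counted apart. A further 20 gained the call, 23 lost it, and 3 reversed where at least 1 of the 2 values passed. The reversed ones were limb minus FB at the start of Tmed9 (-0.17 without centring, -0.32 with depth-scaled tags) and at the start of Dbn1 (-0.56 with depth-scaled tags). The cause was not tested. By limma, 9 of 20 member regions were lower in limb without centring, where 10574 of all 27032 regions tested were. With depth-scaled tags 8 of 20 were lower (7908 of all 26544), and among the 50000 strongest 1 of 18 (2406 of all 18374). Higher in DFL were 2 of 30 without centring (3462 of all 41243) and 3 of 30 with depth-scaled tags (4946 of all 41173). With the earlier library added these were 2 of 30 (2641 of all 40626). Those lower in DFL were 1 of 30 without centring (1962 of all 41243) and 1 of 30 with quantile normalization (2586 of all 41243). They were 7 of 30 with depth-scaled tags (5525 of all 41173) and 1 of 20 among the 50000 strongest (702 of all 24985). Leaving out each library gave 1 to 3 member regions lower in limb (3301 to 4599 of all 27137 to 28155 tested). In DFL it gave 0 to 2 higher (1826 to 2696 of all 41540 to 43980) and 1 to 2 lower (1784 to 2721). Between genotypes it gave 0 (36 to 137 higher and 20 to 97 lower over all). By rank, all deposited regions gave 11 higher and 8 lower in limb and 5 higher and 11 lower in DFL, and the 20000 strongest 0 and 0, and 0 and 3. Leaving out each library gave 3 to 5 in limb in each direction and 1 to 2 higher in DFL. Shares of all consensus regions under these rank settings were not computed, so that the rank counts cannot be set against them.

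The difference in mean number of regions, limb minus FB, at Pitx1 was 0.625 at a −log10 q of at least 10 and 12.0 with summits counted separately. At Tbx4 it was 3.88 among the 50000 strongest, 4.0 at that q, 3.38 at a fold of at least 5, 8.75 with separate summits and 5.25 over all regions within 50 kb, and at Isl1 -0.25, -1.0, -0.50 and -0.25 for the first 4 of these. DFL minus PFL was 0.75 at a fold of at least 5 and -10.5 with separate summits at Pitx1, 1.75, 2.00 and 2.25 (50000 strongest, q, fold) at Tbx4, and 1.00 among the 50000 strongest and 1.00 at a fold of at least 5 at Isl1. For 542 minus wt at Pitx1 it was -0.50, -3.67 and -2.83 in the same order, and at Tbx4 -2.40 to -0.167 when each library was left out.

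No pairing by replicate number was detected, as deviations of same-numbered libraries correlated at -0.0384 to 0.0155. Whether same-numbered libraries shared embryos or a day cannot be told from this. With a replicate block limma gave 3 of 20 higher and 2 lower in limb (6444 and 4257 of all 27032). In DFL it gave 1 of 30 higher and 3 lower (2799 and 2791 of all 41243), with the start of Tmed9 added (adjusted p = 0.0458, limma). Between genotypes it gave 0 of 20 (93 higher and 55 lower of all 27032). A weak region that was not called may lie below the threshold at the depth of its library, which was not tested, and 74 of 126 regions never reached the 50000 strongest.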
